A study of Homo sapiens with 12 samples.

Results

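Spliceosome core proteins were covered in this knockout screen by 292 sgRNAs against 49 genes, out of 121411 sgRNAs against 20915 gene names. The members were all rows of the count table whose gene name was SF3A or SF3B with a number, or began with PRPF and a digit, with SNRP, with LSM and a digit, or with U2AF. Of these genes, 48 had 6 sgRNAs and SNRPC had 4. The sgRNAs of 1 gene share their target and are not replicates of a condition.

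Each cell in the screen carried Cas9 and an sgRNA of the GeCKO V2 library on the lentiviral vector lentiCRISPR v2. The sgRNAs were counted by PCR and sequencing from genomic DNA. A count therefore follows the number of cells that carry the sgRNA and not the expression of the gene. Whether each of these cells had lost the gene was not analysed here. N87, a gastric cancer line with HER2 amplification, was treated with 0.5 µM lapatinib, which blocks the kinases of EGFR and HER2, for 14 days (N87 lapatinib), or with DMSO for 14 days (N87 vehicle), or was collected after 7 days of puromycin selection (N87 baseline). OE19, a HER2-amplified line from the oesophagogastric junction, was treated with 1 µM lapatinib for 14 days (OE19 lapatinib), with DMSO for 14 days (OE19 vehicle), or collected after the same selection (OE19 baseline). Each group had 2 libraries, which the methods describe as separately transduced replicates. The baseline was taken after selection, so any loss of knockout cells before that time lies outside every comparison here.

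Splicing removes introns from precursor mRNA. The spliceosome is built from small nuclear ribonucleoproteins (snRNPs), each an RNA (U1, U2, U4, U5 or U6) with its proteins. U1 recognizes the 5′ splice site, U2AF and then U2 with the SF3a and SF3b complexes recognize the branch region and the 3′ splice site, and the tri-snRNP of U4, U5 and U6 brings in the catalytic RNAs. A ring of Sm proteins sits on U1, U2, U4 and U5, and a ring of the related LSM proteins sits on U6. Most of these proteins are known to be needed by every dividing human cell. The gene names did not fully match this machinery. LSM1 is the mRNA decay counterpart of the U6 ring, LSM10 and LSM11 belong to the U7 snRNP that processes histone mRNA, and LSM12, LSM14A and LSM14B are not core spliceosome proteins, so these 6 genes are described as a group of their own. SF3B14 is the older name of SF3B6. LSM8 was not analysed here.

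Total counts ran between 13105805 and 33743599 per library, and the median count of a member sgRNA was between 49 and 201.5. Levels are given as normalized counts, which are counts divided by a size factor per library (median of ratios), and the level of a gene is the median over its sgRNAs. The median member sgRNA had normalized counts of 73.0 and 74.5 in N87 lapatinib, 105.0 and 87.6 in N87 vehicle, and 123 and 114 in N87 baseline. In OE19 it had 127 and 127 with lapatinib, 107 and 121 with vehicle, and 145 and 147 at baseline. The median over all gene-targeting sgRNAs stayed between 144 and 150.1 in every library, so that the members were at the level of other sgRNAs in the OE19 baseline and below it in the other groups.

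Most members had different levels in the lines already at baseline, after 7 days of selection and before any treatment. The level of both OE19 baseline libraries lay above that of both N87 baseline libraries for 34 of 49 members, against 20.6% of all genes, and below it for 2 members, against 18.8% of all genes. LSM3, for example, had 153 and 183 in OE19 baseline, against 116 and 84.4 in N87 baseline, LSM2 had 204 and 221, against 154 and 127, and U2AF1 had 129 and 124, against 80.5 and 77.5. The median sgRNA of other machinery that dividing cells need was also higher in OE19 baseline. For cytosolic ribosomal protein genes it had normalized counts of 125 and 129 in OE19, against 107 and 94.9 in N87. For proteasome genes it had 116 and 127, against 103 and 92.1, and for further spliceosome genes 117 and 124, against 105 and 95.6. The plasmid library was not analysed here, so the starting level common to both lines is not known, and no test of these differences was made.

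The first question was which of these knockouts were lost during growth without drug. In N87, 9 of 49 members (18.4%) were lower in vehicle than in baseline, against 2.34% of all genes, and no member was higher (0.0574% of all genes). In OE19, 4 of 49 (8.16%) were lower, against 1.53% of all genes, and no gene was higher (0%). Here sgRNAs were tested with edgeR and combined into a gene p-value by robust rank aggregation, which asks whether several sgRNAs of a gene lie near the top of the ranking of all sgRNAs. A gene was called at an adjusted p (Benjamini-Hochberg over all genes, per direction) under 0.05. At an unadjusted p under 0.05, 17 members were lower and 0 higher in N87 (7.07% and 5.11% of all genes), and 22 were lower and 1 higher in OE19 (6.99% and 4.99% of all genes). The fold change of a gene is the median over its sgRNAs of the log2 fold change, with the SD over sgRNAs. The median of this value over the 49 members was −0.29 in N87, where it was 0.02 over all genes, and −0.29 in OE19, where it was 0.01. It was below 0 for 44 of 49 members in N87 and for 45 in OE19. The gene levels of both vehicle libraries lay under those of both baseline libraries for 32 members in N87 and 37 in OE19, as they did for 19.3% and 24.1% of all genes, and above them for 2 members in each line (20.9% and 23.1% of all genes). Of 291 tested member sgRNAs, 3 were lower in N87 and 15 in OE19 past an adjusted p of 0.05 on their own (1.03% and 5.15%), against 0.0399% and 0.893% of all sgRNAs, and none was higher (0% and 0.0114%).

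The calls depended on single libraries, and so did the number of calls over all genes in both lines. The members' median minus that of all genes in N87 was −0.48 without vehicle replicate 1 and −0.20 without vehicle replicate 2, against −0.31 with all libraries. Without vehicle replicate 2 of N87 only LSM11 and SNRPG remained, and without baseline replicate 1 of N87 only LSM11, SNRPG and PRPF19 remained. Of the OE19 calls, PRPF19 alone remained without vehicle replicate 2, and LSM11 and PRPF19 remained without baseline replicate 2. With limma on the mean log2 normalized count of each gene, no gene of any kind was called in N87 (0%), while 16 members were lower in OE19 (4.98% of all genes) and none was higher (0.0479%).

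LSM11, a subunit of the U7 snRNP (chr5:157170720-157187717, GRCh37), was called in both lines. Its level was 195 and 103 in N87 vehicle, against 262 and 292 in N87 baseline. In OE19 it was 188 and 196 in vehicle, against 269 and 268 in baseline. The vehicle libraries were below the baseline libraries in both lines, and the vehicle libraries of N87 were farther apart from each other than the first was from the nearer baseline library. The fold change was −0.94 ± 0.54 in N87 (SD over 6 sgRNAs, adjusted p = 8.99e-05 by edgeR and rank aggregation) and −0.99 ± 0.72 in OE19 (adjusted p = 0.000127). In each line 5 of its 6 sgRNAs were below 0, and the sixth stood at 0.11 in N87 and 0.29 in OE19. The call in N87 held without any 1 library, and the call in OE19 was lost without vehicle replicate 2 (adjusted p = 0.0858).

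PRPF19, the ubiquitin ligase at the centre of the PRP19 complex that is needed to activate the spliceosome (chr11:60658019-60674057), was the other gene called in both lines. Its level was 64.1 and 40.1 in N87 vehicle, against 104 and 85.5 in N87 baseline. In OE19 it was 50.9 and 71.5 in vehicle, against 112 and 116 in baseline. The groups did not overlap in either line. The fold change was −0.78 ± 0.56 in N87 (adjusted p = 0.0101) and −1.03 ± 0.76 in OE19 (adjusted p = 0.0222), and all 6 sgRNAs were below 0 in both lines. HGLibB_39664, the sgRNA against PRPF19 that passed on its own in OE19, had normalized counts of 23.6 and 28.4 in vehicle, against 85.3 and 84.6 in baseline (log2 fold change −1.73, adjusted p = 0.0337 by edgeR). The call in N87 was lost without vehicle replicate 2, and the call in OE19 without vehicle replicate 1 and with a minimum of 30 counts per library.

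Among the Sm ring proteins, 1 of 8 was called in N87 and 0 of 8 in OE19 (2.34% and 1.53% of all genes). In OE19, 3 of 8 were lower at an unadjusted p under 0.05 and 4 of 8 by limma (6.99% and 4.98% of all genes). The called gene was SNRPG, with levels of 62.9 and 57.2 in N87 vehicle, against 94.6 and 86.9 in N87 baseline (−0.64 ± 0.43, adjusted p = 0.00661). The call was lost without vehicle replicate 1 (adjusted p = 0.314 by edgeR and rank aggregation). In OE19 its levels were 66.7 and 80.0 in vehicle, against 121 and 134 in baseline, with no overlap and a fold change of −0.47 ± 0.40 (adjusted p = 0.896 by rank aggregation, 0.0496 by limma). SNRPF, another ring member, had the lowest median of the ring in OE19. It stood at 26.9 and 43.7 in OE19 vehicle, against 64.0 and 88.0 in OE19 baseline (−0.93 ± 0.49, adjusted p = 0.454 by rank aggregation, 0.0154 by limma). In N87 SNRPF had 40.6 and 29.6 in vehicle, against 52.7 and 50.6 in baseline (−0.55 ± 0.63). SNRPF thus had a negative median in both lines without passing the rank aggregation. SNRPD1 had medians of −0.64 in N87 and −0.47 in OE19, and SNRPD3 of −0.41 and −0.31.

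The only ring protein with a median above 0 in N87 was SNRPN, the paralogue of SNRPB that is best known from neurons. Its levels were 121 and 132 in N87 vehicle, against 146 and 118 in baseline, and 127 and 169.7 in OE19 vehicle, against 138 and 133 in baseline, so the groups overlapped in both lines. The fold change of SNRPN was 0.10 ± 0.27 in N87 and −0.06 ± 0.18 in OE19. SNRPB, the ubiquitous form, had −0.15 ± 0.37 and −0.22 ± 0.33 and was not called either.

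Of the U1 proteins, SNRPC was called in N87 and SNRPA in neither line. SNRPC helps U1 to bind the 5′ splice site. Its level over 4 sgRNAs was 57.9 and 43.4 in N87 vehicle, against 79.6 and 54.8 in N87 baseline, so the groups overlapped. The fold change was −0.86 ± 0.51 (adjusted p = 0.0266), and the call was lost without any 1 of the 4 libraries. In OE19 the levels of SNRPC were 61.2 and 76.6 in vehicle, against 94.9 and 115 in baseline (−0.37 ± 0.76, adjusted p = 0.402).

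No gene of U2, SF3a, SF3b or U2AF was called in growth in either line by rank aggregation. At an unadjusted p under 0.05, 2 of the 5 U2 and SF3a genes and 2 of the 6 SF3b genes were lower in each line. So was 1 of the 3 U2AF genes (7.07% of all genes in N87 and 6.99% in OE19). By limma 1, 1 and 2 genes of these groups were lower in OE19 (4.98% of all genes). The SF3b gene with the lowest median was SF3B4, a protein of the branch region. It had 54.8 and 32.1 in N87 vehicle, against 73.5 and 61.8 in N87 baseline (−0.44 ± 0.78, adjusted p = 0.0526). In OE19 it had 57.1 and 53.9 in vehicle, against 97.5 and 127 in baseline (−0.67 ± 0.70, adjusted p = 0.168). The groups did not overlap in either line. SF3B14 had medians of −0.29 in N87 and −0.18 in OE19.

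U2AF1, the small subunit of U2AF, and its paralogue U2AF1L4 differed in level. U2AF1 had 64.1 and 49.2 in N87 vehicle, against 80.5 and 77.5 in baseline, and 83.7 and 95.3 in OE19 vehicle, against 129 and 124 in baseline. U2AF1L4 had 160.2 and 161 in N87 vehicle, against 155 and 175 in baseline, and 172 and 199.7 in OE19 vehicle, against 158 and 171 in baseline. The vehicle libraries were below the baseline libraries for U2AF1 in both lines, and were not for U2AF1L4 in either. The fold changes were −0.42 ± 0.34 in N87 and −0.69 ± 0.72 in OE19 for U2AF1 (adjusted p = 1 and 0.430 by rank aggregation, 0.0219 by limma in OE19), and 0.13 ± 0.15 and 0.13 ± 0.27 for U2AF1L4.

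Of the 6 genes of U5 and the tri-snRNP, PRPF4 and PRPF6 were called in N87 and none in OE19 (2.34% and 1.53% of all genes). PRPF4, a protein of the U4/U6 particle, had 48.7 and 32.1 in N87 vehicle, against 99.2 and 73.3 in N87 baseline (−0.72 ± 0.42, all 6 sgRNAs below 0, adjusted p = 0.00841). In OE19 it had 51.2 and 60.7 in vehicle, against 99.7 and 115 in baseline (−0.46 ± 0.56, adjusted p = 0.939). The level of PRPF4 in vehicle was apart from baseline in both lines. PRPF6, which bridges U5 and the U4/U6 particle, had 147 and 96.4 in N87 vehicle, against 163 and 157 in baseline (−0.59 ± 0.53, adjusted p = 0.0101), and its sgRNAs were divided, 4 below and 2 above 0. Without vehicle replicate 2 or baseline replicate 1, neither PRPF4 nor PRPF6 was called in N87, and PRPF4 was also lost without vehicle replicate 1. PRPF8, the large U5 protein at the catalytic centre, had medians of −0.40 in N87 and −0.22 in OE19. In OE19 its sgRNAs ran between −0.86 and 0.67, and it was the 1 member with an unadjusted p under 0.05 for a higher level (adjusted p = 0.842 by edgeR and rank aggregation).

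The remaining 7 PRPF genes gave 3 calls in N87 (PRPF19, PRPF38B and PRPF39) and 1 in OE19 (PRPF19), against 2.34% and 1.53% of all genes. PRPF38B had the lowest median of these genes in N87, with levels of 63.3 and 34.6 in vehicle, against 122 and 82.0 in baseline (−0.94 ± 0.40, all 6 sgRNAs below 0, adjusted p = 0.00104). In OE19 it had 65.6 and 81.7 in vehicle, against 116 and 129 in baseline (−0.67 ± 0.21, again with all 6 below 0, adjusted p = 0.405 by rank aggregation and 0.00833 by limma). The groups did not overlap in either line. Its paralogue PRPF38A, a protein of the precatalytic spliceosome, had −0.27 ± 0.28 in N87 and −0.02 ± 0.59 in OE19. In OE19 the levels of PRPF38A were 122 and 112 in vehicle, against 112 and 123 in baseline, and overlapped.

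PRPF39, an alternative splicing factor that works with U1, had 61.8 and 49.6 in N87 vehicle, against 104 and 85.8 in baseline (−0.63 ± 0.44, adjusted p = 0.00551). In OE19 it had 95.1 and 86.8 in vehicle, against 138 and 139 in baseline (−0.36 ± 0.62, adjusted p = 0.656). PRPF38B and PRPF39 were called in N87 with either baseline replicate 2 or vehicle replicate 1 left out, and with neither of the other libraries left out.

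In the U6 ring, 1 of 6 genes was called in N87 and 2 of 6 in OE19 (2.34% and 1.53% of all genes). LSM7 was called in N87, with 94.6 and 78.4 in vehicle, against 141 and 123 in baseline (−0.51 ± 0.31, all 6 sgRNAs below 0, adjusted p = 0.0231). Of the fits that left out 1 library, only the one without baseline replicate 2 called it. In OE19 LSM7 had 92.5 and 134 in vehicle, against 160.2 and 192 in baseline (−0.70 ± 0.46, adjusted p = 0.159 by rank aggregation, 0.0221 by limma). LSM2 (chr6:31765173-31774743) was called in OE19, with 124 and 121 in vehicle, against 204 and 221 in baseline (−0.86 ± 0.26, all 6 sgRNAs below 0, adjusted p = 0.0378). In N87 LSM2 had 127 and 67.2 in vehicle, against 154 and 127 in baseline (−0.49 ± 0.23, adjusted p = 0.127), again with all 6 sgRNAs below 0. Its levels were apart in OE19 and overlapped in N87 by less than 1 normalized count. The OE19 call of LSM2 was lost without vehicle replicate 2 or baseline replicate 2.

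LSM3, the neighbour of LSM2 in the ring, was called in OE19 on 2 of its 6 sgRNAs. HGLibB_28499 had 47.2 and 56.7 in vehicle, against 144 and 154 in baseline (log2 fold change −1.54, adjusted p = 0.0179 by edgeR), and HGLibA_35826 had 67.8 and 70.4, against 162 and 211 (−1.44, adjusted p = 0.0181). The other 4 sgRNAs ran between −0.62 and 0.45. The median of LSM3 was therefore only −0.36 ± 0.82 (adjusted p = 0.0298), and the call was lost without any 1 of the 4 libraries and with the replicate block (adjusted p up to 0.0981). LSM6 was the ring gene with medians nearest 0, at 0.02 in N87 and −0.05 in OE19, on 5 tested sgRNAs.

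Of the 6 LSM genes outside the U6 ring, LSM11 was the only one called in either line by rank aggregation (2.34% of all genes in N87 and 1.53% in OE19). LSM14A and LSM14B, RNA-binding proteins of cytoplasmic P-bodies, had medians of 0.04 and −0.04 in N87 and 0.02 and −0.04 in OE19. The median over the 6 genes was −0.05 in N87 and −0.08 in OE19, while that of the U6 ring was −0.38 and −0.51 and that of the Sm ring −0.34 and −0.27.

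The growth effects of the lines were set against each other by the interaction of line and time in edgeR. No member differed between OE19 and N87 by rank aggregation in either direction (0.191% of all genes were lower and 0.0383% higher in OE19), with 4 members lower and 2 higher at an unadjusted p under 0.05 (5.39% and 5.2% of all genes). By limma no gene differed (0%). LSM2, called only in OE19, had an OE19 minus N87 difference of −0.35 ± 0.15 with all 6 sgRNAs below 0, and SNRPC, called only in N87, had 0.03 ± 0.73 (adjusted p = 0.387). Of the calls in growth, 2 genes were shared, which is 22.2% of the N87 calls and 50% of the OE19 calls, against 33.3% and 51.1% over all genes. Across the 49 members the gene medians of the lines had a Pearson correlation of 0.71 and a Spearman correlation of 0.71, against 0.58 and 0.35 across 20893 genes. Both lines were given the same sgRNAs, and genes are not independent replicates, so these are descriptions.

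The loss of members in growth was set beside that of other machinery that dividing cells need. In N87, 24 of 87 cytosolic ribosomal protein genes (27.6%) and 4 of 39 proteasome genes (10.3%) were lower in vehicle than in baseline, and in OE19 15 of 87 (17.2%) and 1 of 39 (2.56%). The medians were −0.43 and −0.49 for the ribosomal genes and −0.31 and −0.33 for the proteasome genes in N87 and OE19. The members lay between these groups by the share called. Their medians, −0.29 in both lines, were smaller in size than those of either group. No test of this difference was made. The members include the 6 LSM genes outside the U6 ring, whose median was −0.05 in N87 and −0.08 in OE19. The median of the members without these genes was not compared here. Of 71 further spliceosome genes outside the name rule, 10 (14.1%) were lower in N87 and 4 (5.63%) in OE19, with medians of −0.29 and −0.27. The 10 in N87 were SNRNP70, SNRNP25, SNRNP27, SNRNP35, TXNL4A, NHP2L1, DHX15, DHX38, XAB2 and SMU1, and the 4 in OE19 were DHX15, RBM17, SF1 and SRSF2. TXNL4A, a small U5 protein, had the lowest median of these 10 (−1.02 ± 0.68, adjusted p = 0.00407), and SF1, which binds the branch point, had −0.98 ± 0.72 in OE19 (adjusted p = 0.00104). DHX15, a helicase that takes the spliceosome apart, was the only gene of this list called in both lines, with −0.67 ± 0.24 in N87 (adjusted p = 0.00785) and −0.91 ± 0.41 in OE19 (adjusted p = 0.0245).

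The next question was whether the knockouts changed the response to lapatinib. No member was lower or higher in lapatinib than in vehicle in either line by rank aggregation. In N87 0.0144% of all genes were lower and 0% higher, and in OE19 0% were lower and 0.0957% higher. At an unadjusted p under 0.05, 3 members were lower and 1 higher in N87 (5.18% and 5.08% of all genes), and 1 was lower and 5 higher in OE19 (5.37% and 5.47% of all genes). The 49 genes were all tested, on 283 sgRNAs in N87 and 287 in OE19. By limma on gene means, 22 members were lower (23.8% of all genes) and 2 higher (16.6% of all genes) in N87, and none was lower (1.07% of all genes) and 3 were higher (4.77% of all genes) in OE19.

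N87 lapatinib libraries stood apart from the rest in the spread of single sgRNAs. Of the tested member sgRNAs in N87, 104 of 283 were lower and 67 higher past an sgRNA threshold of adjusted p under 0.05, against 29.9% lower and 31.2% higher over all sgRNAs. Of the control guides, which target no gene, 15.7% were lower and 36.6% higher in this comparison. The SD of the log2 fold change was 1.67 over member sgRNAs, 1.40 over all gene-targeting sgRNAs and 1.03 over control guides. The share of this spread in the gene values below was not tested. In the N87 lapatinib libraries 12 and 6 member sgRNAs had no count, against 0 in both N87 vehicle libraries. Beyond the gene call, 39 of 49 members had at least 1 sgRNA past the threshold in each direction in N87, against 73.3% of all genes, so that sgRNAs to the same gene moved apart in most genes of the library.

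LSM3 showed this division. Of its 6 sgRNAs in N87, 3 were higher and 3 lower in lapatinib than in vehicle, each past the sgRNA threshold. HGLibA_35826 had 1053 and 668 in lapatinib, against 120.5 and 70.1 in vehicle (3.11), while HGLibA_35827 had 1.24 and 1.20, against 30.1 and 35.0 (−4.66). Both replicates gave the same direction for each sgRNA, while the sgRNAs of the gene moved in opposite directions. The gene level of LSM3 was accordingly 339 and 249 in lapatinib, against 109.7 and 86.8 in vehicle, although its median fold change was −0.50 ± 3.04.

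SNRPF had the lowest median of all members in N87 lapatinib. Its level was 3.09 and 6.01 in lapatinib, against 40.6 and 29.6 in vehicle, and the groups were far apart. Only 4 of its 6 sgRNAs had enough counts to be tested. Of these, 3 were lower and HGLibA_54276 was higher, with 355 and 213 in lapatinib, against 54.1 and 30.9 in vehicle (2.67). The median was −2.47 ± 2.75, with an adjusted p of 1 by rank aggregation and 0.00986 by limma.

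SF3B4 and SNRPD3 were next. SF3B4 had 5.57 and 17.4 in N87 lapatinib, against 54.8 and 32.1 in vehicle (−1.82 ± 2.20 over 5 sgRNAs, 3 lower and 1 higher, adjusted p = 1 by rank aggregation and 0.0929 by limma). SNRPD3 had 3.71 and 14.4, against 31.3 and 23.4 (−1.82 ± 1.45, adjusted p = 1 and 0.0200). LSM2 had 19.2 and 36.6 in lapatinib, against 127 and 67.2 in vehicle (−1.68 ± 2.58, 3 sgRNAs lower and 2 higher, adjusted p = 0.919 and 0.0504). All 3 genes were below vehicle in both libraries, with sgRNAs on both sides of 0.

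PRPF39 and PRPF38A were lower in N87 lapatinib by limma, and all of their sgRNAs pointed the same way. PRPF39 had 21.7 and 22.8 in lapatinib, against 61.8 and 49.6 in vehicle, with all 6 sgRNAs below 0 and 4 past the sgRNA threshold (−1.45 ± 0.93, adjusted p = 1 by rank aggregation and 0.0106 by limma). PRPF38A had 40.2 and 37.2, against 77.2 and 64.7, with all 6 below 0 and 3 past the threshold (−1.15 ± 1.46, adjusted p = 1 and 0.00832). PRPF38B had 26.6 and 31.8, against 63.3 and 34.6 (−1.30 ± 0.98, adjusted p = 1 and 0.0488). LSM7 had 47.6 and 42.0, against 94.6 and 78.4 (−1.39 ± 1.57, adjusted p = 1 and 0.0112). For each of these 4 genes the lapatinib libraries were below the vehicle libraries.

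The genes called in growth in N87 had mixed levels with lapatinib. LSM7, PRPF38B and PRPF39, given above, were among them and lay below vehicle in both libraries. LSM11 had 92.2 and 133 in lapatinib, against 195 and 103 in vehicle, and PRPF19 had 27.2 and 61.9, against 64.1 and 40.1, so both overlapped. PRPF4 had 48.3 and 45.0 in lapatinib, against 48.7 and 32.1 in vehicle (−0.42 ± 2.16), and PRPF6 had 152 and 95.5, against 147 and 96.4 (−0.23 ± 0.98), with overlap in both cases. SNRPG had 53.2 and 62.5, against 62.9 and 57.2 (−0.17 ± 2.17), and SNRPC had 35.3 and 48.6, against 57.9 and 43.4, both with overlap.

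LSM14A and LSM14B were the members with the highest medians in N87 lapatinib, and the 2 that limma called higher. LSM14B had 492 and 438 in lapatinib, against 136 and 144 in vehicle (1.22 ± 1.97, 4 sgRNAs higher and 1 lower, adjusted p = 0.912 by rank aggregation and 0.0133 by limma). LSM14A had 369 and 269.7 in lapatinib, against 239.8 and 239 in vehicle (1.12 ± 2.13, 4 sgRNAs higher and 2 lower, adjusted p = 0.992 and 0.0138). HGLibA_35817 against LSM14A reached 2861 and 1953, against 243 and 191 in vehicle (3.41). Neither gene was called in growth in either line, and in OE19 their medians with lapatinib were 0.10 ± 0.27 for LSM14B and −0.21 ± 0.29 for LSM14A.

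By group, the median over genes in N87 lapatinib was −0.43 for the Sm ring, −0.37 for U1, −0.82 for U2 and SF3a, −0.74 for SF3b, 0.04 for U2AF, −0.33 for U5 and the tri-snRNP, −0.91 for the other PRPF genes, −0.73 for the U6 ring and 0.57 for the LSM genes outside that ring. The median over all members was −0.56, and −0.09 over all genes. Both lapatinib libraries lay below both vehicle libraries in gene level for 23 members and above them for 10, against 35.3% and 44.6% of all genes. Ribosomal genes had −0.39, proteasome genes −0.55 and the other spliceosome genes −0.48 in the same comparison. With a minimum of 30 counts per library, the members' median minus that of all genes was −0.15, against −0.46 with a minimum of 10, and it was −0.23 without vehicle replicate 1.

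In OE19 the members' median was slightly above that of all genes with lapatinib (0.08, against −0.02), and this difference of 0.10 was 0.0257 without vehicle replicate 1 and 0.154 without vehicle replicate 2. With total counts as the only scaling, the members' median was −0.37 and that of all genes −0.46, so only the position relative to all genes is described. Of 287 tested member sgRNAs, 0 were lower and 7 higher (2.44%), against 0.0795% lower and 2.33% higher over all sgRNAs. Both lapatinib libraries lay above both vehicle libraries for 21 members and below them for 4, against 25.9% and 23.3% of all genes.

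The highest median in OE19 lapatinib was that of SNRPD1, with 109.8 and 75.3 in lapatinib, against 70.8 and 47.7 in vehicle (0.73 ± 0.65, adjusted p = 1 by rank aggregation and 0.279 by limma). LSM11 had 235 and 252 in lapatinib, against 188 and 196 in vehicle (0.64 ± 0.49, all 6 sgRNAs above 0, adjusted p = 1 and 0.0182). Its lapatinib level was thus between those of vehicle and baseline, which were 269 and 268 at baseline. The growth and lapatinib values of LSM11 share the same OE19 vehicle libraries, so they are not independent of each other. PRPF19 had 82.7 and 62.8, against 50.9 and 71.5 (0.60 ± 0.77, adjusted p = 1 and 0.0695), with overlap. The lowest medians were those of LSM6, with 10.3 and 39.6 in lapatinib, against 57.5 and 57.3 in vehicle (−0.59 ± 0.62 over 4 sgRNAs, adjusted p = 1 and 0.0710), and of SF3B14. PRPF8 and PRPF6 followed. PRPF8 had 146 and 120 in lapatinib, against 165 and 172 in vehicle, with all 6 sgRNAs below 0. PRPF6 had 150 and 158, against 132 and 182, with overlap. The 4 tested sgRNAs of LSM6 stood at −1.36, −0.91, −0.27 and 0.001. Its level of 10.3 came from the first lapatinib library, which had the lowest total count of all libraries (13105805).

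In OE19 lapatinib a single sgRNA against SF3B14 rose far above the others, although the gene median was negative. HGLibB_44650 had 2992 and 2087 in lapatinib, against 67.1 and 76.0 in vehicle (log2 fold change 5.13, adjusted p = 0.00337 by edgeR), while the other 5 sgRNAs ran between −1.10 and 0.45. The median was −0.45 ± 2.35 and the gene was not called (adjusted p = 0.431 for higher and 0.898 for lower). In N87 the same sgRNA had 0 and 15.6 in lapatinib, against 58.7 and 25.0 in vehicle (−2.44), so it moved in opposite directions in the 2 lines. Besides LSM11, the members that limma called higher in OE19 were PRPF31 and SNRPA, named here after their values were seen. PRPF31, a tri-snRNP protein, had 196 and 165 in lapatinib, against 84.8 and 112 in vehicle (0.58 ± 1.47, adjusted p = 0.698 by rank aggregation and 0.00717 by limma), with 2 of 6 sgRNAs past the sgRNA threshold. SNRPA, a U1 protein, had 183 and 157, against 129.8 and 116 (0.53 ± 0.87, adjusted p = 0.893 and 0.0285).

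The effects of lapatinib in OE19 and N87 were compared by the interaction of line and treatment, which also holds the difference in dose. No member differed by rank aggregation (0% of all genes were lower in OE19 and 0.0191% higher), and 4 were lower and 3 higher at an unadjusted p under 0.05 (5.14% and 5.19% of all genes). By limma 22 members were higher in OE19 (17.1% of all genes) and 2 lower (11.9%), which were LSM14A and LSM14B. The median OE19 minus N87 difference was 0.57 over members and 0.15 over all genes, and 0.56 over ribosomal and 0.66 over proteasome genes.

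Lapatinib was also set against baseline, a comparison that uses the same lapatinib libraries as the one with vehicle. No member was called by rank aggregation in either line. In N87, 0.134% of all genes were lower and 0% higher, and in OE19 0.129% and 0.124%. At an unadjusted p under 0.05, 10 members were lower and 0 higher in N87 (5.23% and 5.13% of all genes), and 16 were lower and 2 higher in OE19 (5.69% and 5.35% of all genes). The members' median was −0.97 in N87 (−0.10 over all genes) and −0.19 in OE19 (−0.02 over all genes). By limma 36 members were lower and 2 higher in N87 (27.9% and 19.9% of all genes), and 0 in OE19 (0.833% and 2.25%).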

How the data were processed

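Reads were trimmed and quality-checked by the authors (FastQC 0.11.5 in the submitters' notes) and mapped to the sgRNA library with Bowtie (Bowtie2 2.3.2 in the notes), and the authors deposited the resulting raw counts per sgRNA for 12 libraries. All of these columns were used. The sgRNA sequences were not used here, and MAGeCK (0.5.6 in the notes), the authors' gene scoring tool, was not run.

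In R 4.3.3, each comparison was fitted with edgeR 4.0.16 (quasi-likelihood test, TMM factors, condition as the only term) to its 4 libraries, or to 8 libraries with line and the interaction. An sgRNA entered with an average of at least 10 counts per library. Its one-sided p-values were ranked among all sgRNAs, control guides included. Robust rank aggregation then combined the ranks under 0.05 of every gene that kept 2 or more sgRNAs, against the exact null of uniform ranks, and p-values were adjusted over all genes. limma 3.58.1 was run on gene means of log2(normalized count + 1), and DESeq2 1.42.0 gave p-values as an alternative. The other alternatives were ranks below 0.25, other scalings, count minimums, the replicate block and leaving out each library. The gene test was checked on simulated counts. Positions are from GENCODE on GRCh37.

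The members and lists were chosen with earlier results of these data known. Named genes were all members called, the 4 lowest and 2 highest medians of each growth and lapatinib comparison and a set of paralogue pairs, of which 1 is not reported here, though it stayed in every test and count. PCR reads have no molecular identifiers, and p-values rest on 2 libraries per group.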

Additional observations from a re-analysis of the deposited data

How the results depend on the processing

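None of the 13 gene calls turned its direction under another setting. The members' own median for lapatinib in OE19 was −0.37 with total counts, where that of all genes was −0.46, against 0.08 with TMM factors. For growth between the lines, the members' median minus that of all genes was −0.01 and ran between −0.08 and 0.09 with 1 library left out, so it has no settled sign. The members called lower in growth in N87 numbered 15 with ranks below 0.25 (836 of all genes) and 0 with limma (0 of all genes), instead of 9 (489). Leaving out 1 library gave 2 to 10 in N87 and 2 to 5 in OE19. With limma, 16 members were lower in growth in OE19 (1041 of all genes). With lapatinib in N87, limma gave 22 members lower and 2 higher (4973 and 3469 of all genes). With lapatinib in OE19 it gave 3 higher (997 of all genes). For lapatinib against baseline in N87 it gave 36 lower and 2 higher (5833 and 4153 of all genes). In the lapatinib interaction it gave 2 lower and 22 higher (2488 and 3579 of all genes). DESeq2 p-values gave 1 member lower with lapatinib against baseline in OE19. The share over all genes is not given for that setting, so this count is not read as a result. The members' median minus that of all genes was −0.33 with limma for growth in OE19 and −0.27 to −0.31 with 1 library left out, and −0.20 to −0.48 for growth in N87. For lapatinib in N87 it was −0.15 with a minimum of 30 counts and −0.23 to −0.54 with 1 library left out. For lapatinib in OE19 it was 0.0799 with that minimum, 0.12 with limma and 0.0257 to 0.154 with 1 library left out, and for lapatinib against baseline in OE19 −0.22 with limma and −0.16 to −0.21 with 1 library left out. The cause was not tested. Of the 13 gene calls, 106 of 117 checks without leaving out a library kept the call, and so did 26 of 52 with a library left out.

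The replicate numbers may mark paired libraries. Same-numbered libraries deviated together with r = 0.238 for growth in N87, 0.077 for growth in OE19, 0.0621 and 0.0339 for lapatinib in N87 and OE19, and 0.0345 and 0.0403 for lapatinib against baseline. With the replicate block the difference of medians for lapatinib in OE19 was 0.12, and LSM3 in OE19 was the only call lost.

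Scaling to control guides moved the median of all genes to −0.07 and −0.17 for growth in N87 and OE19. It moved that of the members to −0.38 and −0.48. Total counts moved the median of all genes to −0.62 and −0.46 for lapatinib in N87 and OE19. Total counts were lowest in OE19 lapatinib, at 13105805 and 16378926. The lowest gene level of any member was that of SNRPF in N87 lapatinib, at 3.09 and 6.01 normalized counts.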
